A study of Mus musculus with 8 samples.

Results

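Zinc finger genes numbered Zfp700 to Zfp999 were compared between the brains of BTBR/R and B6 mice. The members were all probes, other than controls, whose gene name on the array ran from Zfp700 to Zfp999, with at most 1 letter after the number. This rule, which uses names only, found 182 probes of 106 genes among the 56605 probes of the array. The study set the BTBR/R strain (BTBRTF/ArtRbrc), an inbred subline of BTBR mice, whose subline BTBR/J is used as a model of autism spectrum disorder, against C57BL/6J (B6), a common laboratory strain. Cerebral cortex and striatum were dissected from 4 male mice of each strain, aged 4 months except BTBR/R replicate 1 at 6 months, and each mouse had its own array, without pooling. The labels give no treatment and no engineered allele for either strain. All arrays shared 1 slide, with the B6 arrays in one column and the BTBR/R arrays in the other, so the column cannot be told apart from strain. In such tissue, fewer cells of a type and less RNA per cell cannot be told apart either.

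Most of these genes encode proteins with a row of C2H2 zinc fingers, each a short loop held by a zinc ion that reads a few bases of DNA, and many carry a KRAB domain at the other end. The KRAB domain recruits the co-repressor TRIM28 (KAP1), which brings in histone deacetylases, the histone methyltransferase SETDB1 and HP1 proteins and so silences chromatin, often at retroviral sequences. The genes lie in arrays of near copies that arose by duplication and differ in content between mouse strains. Names alone do not make a family, since a few members, such as Zfp703 and Zfp804a, have other domains.

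The finger linker, the conserved stretch of residues between neighbouring fingers, was read in 4 of the 182 member probes (2.20%), in 7 of 502 probes for the numbered genes Zfp1 to Zfp699 (1.39%) and in 25 of all probes (0.0442%). These 4 are shown whole because they hold the whole linker, with the bases that code the linker in capitals.
Zfp709 probe A_55_P2629948: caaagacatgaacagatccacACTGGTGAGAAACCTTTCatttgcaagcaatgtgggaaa
Zfp781 probe A_55_P1999453: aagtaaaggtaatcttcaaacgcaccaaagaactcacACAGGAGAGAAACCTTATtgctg
Zfp935 probe A_51_P185523: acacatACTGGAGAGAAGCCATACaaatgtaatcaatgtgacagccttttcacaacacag
Zfp936 probe A_55_P1996082: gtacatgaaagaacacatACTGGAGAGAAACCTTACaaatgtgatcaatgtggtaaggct
The Zfp781, Zfp935 and Zfp936 probes were detected on all 8 arrays, and each was lower in BTBR/R, by changes of -0.29, -0.32 and -0.28 on the log2 scale. The Zfp709 probe, detected on every B6 array and 3 BTBR/R arrays, had a change of 0.13 (adjusted p = 0.562, limma). The other 120 member probes detected on all 8 arrays had a median change of -0.02 and ran from -2.74 to 1.54. Near copies limit what a probe names, and each of the 4 linker probes shared 37 to 46 bases with a probe of another gene. A total of 26 member probes shared at least 40 of their 60 bases with a probe of another gene, and 12 had RefSeq accessions of at least 2 genes. Both Zfp772 probes, 1 Zfp934 probe and 1 Zfp729a probe were among these 12.

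Probes of 5 genes are given by their first 30 bases, of the 3 genes called on a probe detected on all 8 arrays (Zfp933, Zfp961 and Zfp790) and of the genes with the highest folds or bounds among the rest (Zfp963 and Zfp874a). The probe of Zfp933 lies at chr4:147197098-147197157 (mm9, minus strand), that of Zfp874a at chr13:67541780-67541839 (mm9, minus strand), that of Zfp963 at chr8:72265659-72265718 (mm9, minus strand), that of Zfp961 at chr8:74492659-74492718 (mm9, plus strand) and that of Zfp790 at chr7:30616595-30616654 (mm9, plus strand).
Zfp933 probe A_52_P88793: ggggcaggtgtattccttttcatttgaagc
Zfp874a probe A_52_P981697: cctgtacctctgtatctgttgttgtggtat
Zfp963 probe A_66_P130730: tcttcagatatggtatacctcatatgtgag
Zfp961 probe A_55_P2015912: gaaagcctttaaatacatttcttccttacg
Zfp790 probe A_66_P115972: gtcccactaaggttaccagagatccataat
The array's annotation gave no exon or coding boundaries for these positions.

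Signals are given as log2 of the processed intensity minus the 75th percentile of the array (the scaled signal), and changes as BTBR/R minus B6. A probe was detected where the scanner software marked it well above background. Each B6 array detected 156 to 158 member probes (85.7% to 86.8%), and each BTBR/R array 131 to 140 (72.0% to 76.9%), beside 64.5% to 66.8% and 53.5% to 57.2% of all probes. The lowest detected intensity was 14.5 to 17.8 in B6 and 36.1 to 47.1 in BTBR/R, so a dim transcript was measurable on the B6 arrays at levels that were below background on the BTBR/R arrays. For 87 of the 106 genes at least 1 probe was detected on all 8 arrays. A further 13 genes were at best detected on every array of 1 strain, 1 gene on some arrays and 5 genes on no array. Marker lists of neurons, striatal projection neurons and cortex had no called probe (0 of 24, 16 and 8 probes detected on all 8 arrays), nor had those of astrocytes, oligodendrocytes and endothelium (0 of 12, 12 and 6). The oligodendrocyte list had a median change of -0.26, with 1 probe higher and 3 lower at an adjusted p below 0.05 (limma), and its mean signal ran from 2.76 to 3.11 in B6 and from 2.61 to 2.81 in BTBR/R. Of 8 microglia probes, 1 of Cx3cr1 was called higher (1.71) and the other Cx3cr1 probe was lower by -0.71, with a mean signal of the list from 1.62 to 1.65 in B6 and from 1.63 to 1.76 in BTBR/R. Of 6 red blood cell probes, 4 were called lower in BTBR/R, with a mean scaled signal from 2.94 to 4.66 over the B6 arrays and from 2.74 to 3.01 over the BTBR/R arrays. The mean signal of the choroid plexus list ran from -1.82 to 0.93 in B6 and from -0.92 to 0.29 in BTBR/R. The part of these in the results below was not tested.

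A small number of these genes differed strongly in probe signal between the strains, and most did not. Whether BTBR/R carries the bases of each probe was not tested. A probe was called at a Benjamini-Hochberg adjusted p below 0.05 over all 56605 probes (limma) and a change of at least 2-fold. By that rule 12 member probes were called higher in BTBR/R, against 20.2% of all probes, and 13 were called lower, against 2.27% of all probes. The calls split by detection. Of the 123 member probes detected on all 8 arrays, 2 were called higher and 2 lower, beside 1.04% and 1.16% of all probes so detected. Both higher calls were of Zfp961, and the lower calls were of Zfp933 and Zfp790. Of the 32 member probes detected on every B6 array and not on every BTBR/R array, 11 were called lower and none higher, beside 12.6% and 0.202% of all probes so detected. The 1 probe detected on every BTBR/R array and on 3 of 4 B6 arrays, that of Zfp963, was called higher, as were 84.1% of all probes detected on every BTBR/R array and not on every B6 array, so this call is what the class of detection mostly gives.

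The remaining 9 higher calls were of probes detected on no B6 array and on at most 2 BTBR/R arrays. Of these, 7 were probes detected on no array (Zfp735, Zfp750, Zfp758, Zfp850, Zfp872, Zfp950 and Zfp964), with changes of 1.14 to 1.62. All probes detected on no array had a median change of 1.34, and 67.7% of them were called higher. The other two, of Zfp748 and Zfp946, were detected on no B6 array and on 2 and 1 of the BTBR/R arrays. Their calls were lost without any 1 of 6 mice for Zfp748 and any 1 of 5 mice for Zfp946. The ranges and classes are drawn in the plot of change by detection.

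**Figure D1:**
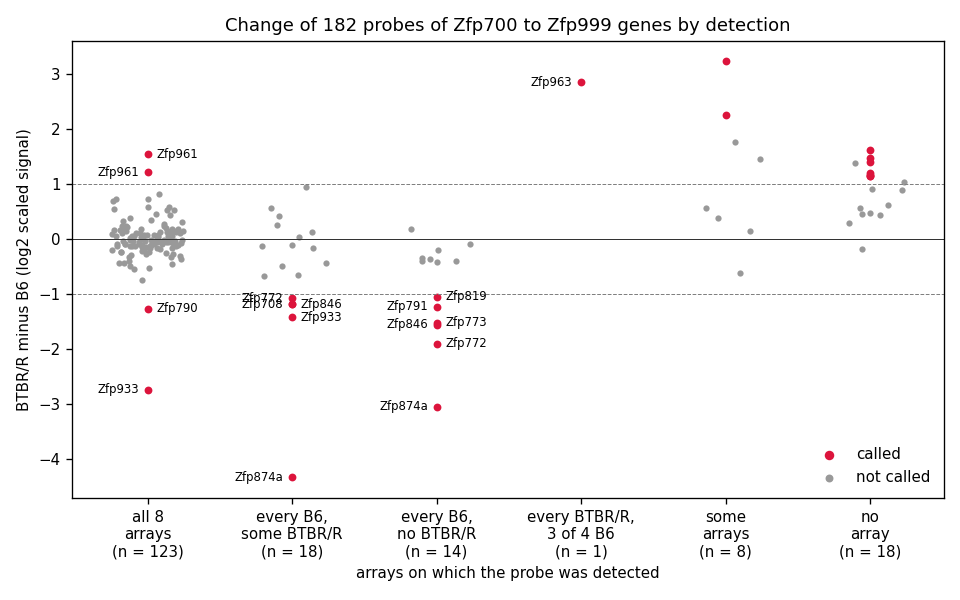
Change of each of the 182 member probes (vertical axis, BTBR/R minus B6 in log2 scaled signal), by the arrays on which it was detected (horizontal axis). Red points were called and grey points were not, and the dashed lines mark a 2-fold change. Of the 123 probes detected on all 8 arrays, 4 were called, and the 7 calls among probes detected on no array were all higher.

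The other changes were mostly small. Across the 123 probes detected on all 8 arrays the median change was -0.03, the quartiles were -0.14 and 0.14, and 16 changed by 0.5 or more (13.0%, beside 8.53% of all probes so detected and 8.99% of those of Zfp1 to Zfp699). The median SD within a strain was 0.081 for these probes and 0.084 for all probes detected on all 8 arrays. At an adjusted p below 0.05 and any size of change, 20 member probes were higher (16.3%, beside 13.0% of all probes so detected) and 22 were lower (17.9%, beside 13.9%). For comparison, 356 probes of Zfp1 to Zfp699 detected on all 8 arrays had a median change of 0.03, with 4 called higher and 8 called lower.

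Zfp933 was the member with the largest fall that was measured on both strains. It is a zinc finger gene of distal chromosome 4, where many near copies lie side by side. The probe A_52_P88793 read 0.41, 0.49, 0.44 and 0.40 in the B6 mice and -2.31, -2.53, -2.23 and -2.16 in the BTBR/R mice. The groups lay far apart, and all 8 arrays detected the probe. The change was -2.74 (SE 0.085, adjusted p = 2.39e-06, limma), or 6.70-fold lower in BTBR/R. The second probe of the gene, A_55_P2733695, read -2.00, -2.23, -2.27 and -2.20 in B6 and -3.75, -3.21, -3.68 and -3.75 in BTBR/R, where 2 of 4 arrays detected it. It was at least 2.62-fold lower. It shares 44 bases with a probe of 2610044O15Rik8, whose change was -1.76, so its signal may not be that of Zfp933 alone.

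Zfp874a had the largest fitted change of any member, on a probe that was below background on 3 of 4 BTBR/R arrays. The probe A_52_P981697 read between -1.04 and -0.96 in the 4 B6 mice. In the BTBR/R mice it read -6.26, -3.51, -5.91 and -5.66, and replicate 2, at -3.51, was the only array that detected it. The fitted change was -4.34 (SE 0.56, adjusted p = 0.000592, limma), and -4.94 without BTBR/R replicate 2. Since 3 BTBR/R arrays were below background, the measured bound was at least 6.50-fold lower, which does not rank it above Zfp933. This kind of bound, used throughout, sets each array of the dim strain to its own lowest detected signal where the probe was below that.

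The second probe of Zfp874a, A_66_P104181, read -2.91, -2.71, -3.02 and -2.82 in B6 and stayed below background on all BTBR/R arrays, for a bound of at least 1.79-fold lower. The third, A_55_P2087691, was detected on no B6 array and on 1 BTBR/R array, replicate 3, at -2.30. Its fitted change of 1.45 ran the other way and did not pass the test (adjusted p = 0.156, limma). Its neighbour and namesake Zfp874b went the other way. Its probe read from -1.32 to -1.16 in B6 and from -0.72 to -0.66 in BTBR/R, a change of 0.54 (SE 0.051) with no overlap between the strains.

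Zfp963 showed the reverse of Zfp874a. Its single probe was barely above background in B6, at -4.62, -4.56, -4.74 and -5.04, the last of them not detected. In BTBR/R it read -1.88, -1.85, -1.95 and -1.88, with the 4 mice within 0.10 of each other. BTBR/R was 7.19-fold higher (fitted change 2.85, SE 0.11, adjusted p = 5.39e-06, limma), counting the undetected mouse at its own signal. With 1 probe on the array, no second measurement of this gene was available in these values.

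Zfp961 gave a split result. The probe A_55_P2015912 read -2.85, -2.65, -2.66 and -2.69 in B6 and -1.13, -1.13, -1.24 and -1.19 in BTBR/R. This was a change of 1.54 (SE 0.061, adjusted p = 7.04e-06, limma), or 2.91-fold higher in BTBR/R. The probe A_55_P2742970 agreed in direction, with B6 from -3.54 to -3.41 and BTBR/R from -2.35 to -2.15, a change of 1.21 (SE 0.059, adjusted p = 1.82e-05, limma). The other two probes of the gene did not pass the test. A_55_P2014570, detected on all 8 arrays, read 0.44 to 0.59 in B6 and 0.34 to 0.39 in BTBR/R, with an adjusted p of 0.0631 (limma). A_55_P2015907, detected on no BTBR/R array, had an adjusted p of 0.395. The 4 probes alternated along the gene, from 5' to 3' as higher, not called, higher and not called. Their spread of 1.68 between probes detected on all 8 arrays was the largest of the 28 genes with at least 2 such probes, whose median spread was 0.18. Which transcript forms each probe reads was not tested.

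Zfp790 was lower in BTBR/R on its single probe, A_66_P115972. The B6 mice read -1.71, -1.81, -1.07 and -1.78, and replicate 3 stood above the others. The BTBR/R mice read -2.75, -2.89, -2.94 and -2.88, all below every B6 mouse. The change was -1.27 (SE 0.17, adjusted p = 0.000639, limma), or 2.42-fold.

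A further 3 genes were measured on every B6 array and only in part on the BTBR/R arrays. Zfp772 was lower on both of its probes. A_51_P454309 read -2.55, -2.37, -2.41 and -2.44 in B6 and stayed below background on all BTBR/R arrays (at least 2.40-fold lower), and A_55_P2902027 read -2.22, -2.54, -2.42 and -2.55 in B6 and -3.44, -3.65, -3.46 and -3.49 in BTBR/R (at least 2.07-fold lower, 3 of 4 arrays detected). The accessions of the first also name 2810047C21Rik1, and those of the second name Zfp954 and Vmn2r29, so the signal cannot be given to 1 gene.

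Zfp846 was lower on both of its probes too. A_52_P589664 read -2.66, -2.31, -2.28 and -2.36 in B6 and stayed below background on all BTBR/R arrays (at least 2.47-fold lower). A_52_P52272 read -2.49, -2.32, -2.24 and -2.36 in B6 and -2.97, -3.87, -3.81 and -3.51 in BTBR/R (at least 2.08-fold lower, 2 of 4 arrays detected). In Zfp708, A_55_P2228918 read -2.17, -2.00, -2.25 and -2.24 in B6 and -3.57, -2.95, -3.45 and -3.46 in BTBR/R, a fitted 2.28-fold lower with 3 of 4 arrays detected and the other counted at its own signal. The second Zfp708 probe was dim in both strains, at a mean of -4.30 in B6, and gave no bound. It was not called (-0.40), and the strains overlapped. Only this probe of the gene has a RefSeq accession.

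**Figure D2:**
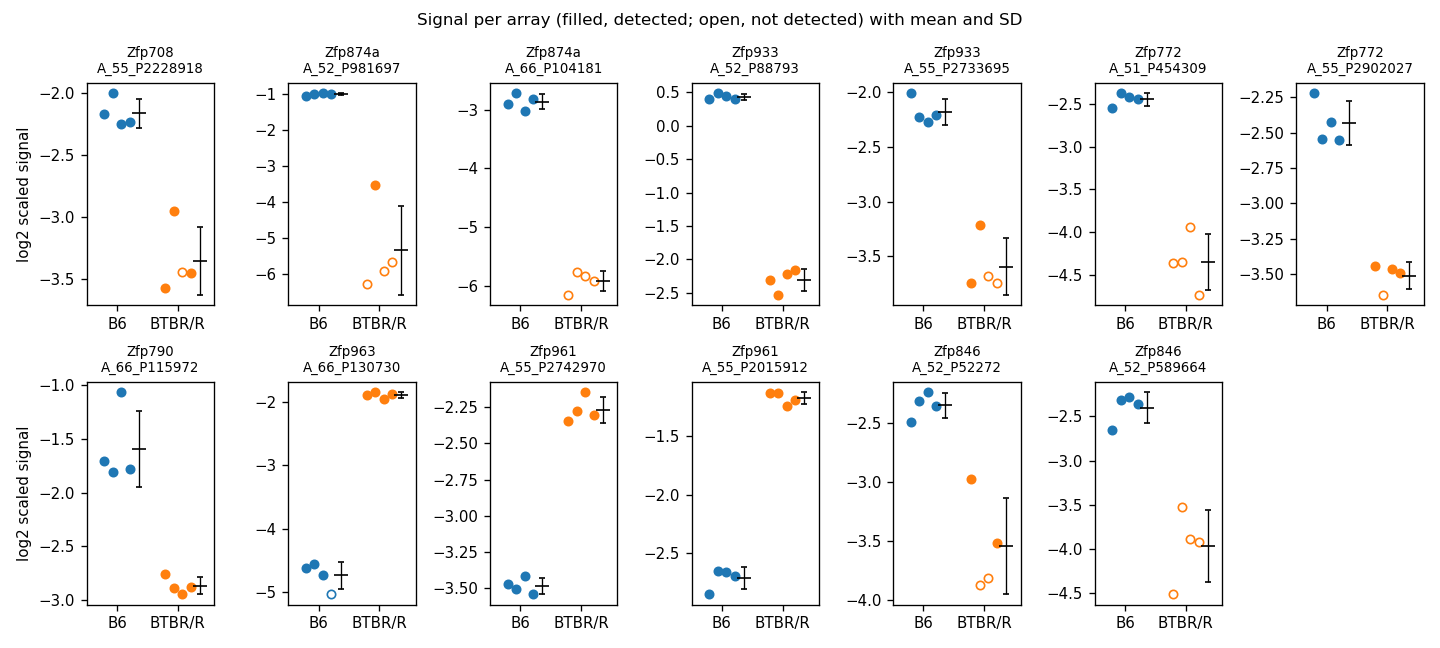
Log2 scaled signal of each mouse for the 13 called probes of the 8 genes described (each panel has its own vertical axis, so levels cannot be compared between panels). Filled points were detected and open points were not, and the bar at the right of each group gives the mean and SD of 4 mice. The probes were chosen as called, and in every panel the strains are separate, with Zfp963 and Zfp961 higher in BTBR/R and the other genes lower.

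The calls of Zfp773 (at least 1.85-fold lower), Zfp819 and Zfp791 rested on B6 signals near the BTBR/R background, and Zfp819 and Zfp791 gave no bound. With normexp background correction, a background model run with an offset of 50 added to every signal, 5 of the 25 member calls were kept. These were both Zfp874a probes, A_52_P88793 of Zfp933, A_55_P2015912 of Zfp961 and Zfp963. The other named probes kept their direction, at -0.84 for Zfp790 and 0.63 for A_55_P2742970 of Zfp961.

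Smaller changes were spread over 33 genes, in probes detected on all 8 arrays with an adjusted p below 0.05. The higher group had 18 probes of 18 genes, from 0.14 to 0.82. Zfp882 led it, with -2.01, -1.94, -1.95 and -2.00 in B6 and -1.10, -1.07, -1.20 and -1.28 in BTBR/R. Zfp748 (0.73), Zfp944 (0.72), Zfp951 (0.58), Zfp868 (0.57), Zfp874b (0.54) and Zfp759 (0.53) followed. Zfp882 has a second probe, detected on every B6 array and 2 BTBR/R arrays, with a change of -0.66. The lower group had 20 probes of 15 genes, from -0.55 to -0.17, led by Zfp867 (-0.55), Zfp869 (-0.53), Zfp950 (-0.50 and -0.45 on 2 probes) and Zfp945 (-0.44). Zfp934 was lower on all 3 of its probes so detected, by -0.44, -0.33 and -0.23.

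A few members with well-known roles were chosen after their values were seen, to show the range. ZFP809, which silences murine retroviruses through the sequence that binds their primer, had a change of -0.16 on the probe detected on all 8 arrays (adjusted p = 0.13, limma). Its second probe, detected on every B6 array and 1 BTBR/R array, was lower by -0.49 (adjusted p = 0.0189, limma; at least 1.27-fold). ZFP932, which represses endogenous retroviruses in embryonic stem cells, was lower on 2 of 4 probes, by -0.37 and -0.23. Its other probes, at -0.13 and 0.10, did not pass the test. The probe at -0.23 shares 46 bases with a probe of Platr25, whose change was -0.57. Accessions of the probe at -0.13 also name Gm15446, and those at -0.37 and 0.10 have no RefSeq accession. Zfp746 (PARIS, a repressor that parkin marks for degradation) had a change of 0.11 (adjusted p = 0.219). Zfp804a, whose human counterpart ZNF804A lies at a schizophrenia risk locus, had -0.20 (adjusted p = 0.242). Zfp711, whose human counterpart is tied to X-linked intellectual disability, had -0.10 (adjusted p = 0.1). Zfp703, a co-repressor of the NET family, had 0.06 (adjusted p = 0.505). Zfp750, a regulator of epidermal differentiation, was detected on no array.

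The members lie on 17 chromosomes, most of them on chromosomes 7 (22 genes), 17 (19), 8 (14) and 13 (13), by the mm9 positions of the array. Genes within 1 Mb of each other in runs of at least 3 formed 12 clusters of 3 to 9 genes, with 62 genes in clusters and 44 outside. In clusters, 29 of 70 probes detected on all 8 arrays passed an adjusted p of 0.05 (41.4%) and 2 were called. Outside, 13 of 53 passed (24.5%) and 2 were called, those of Zfp933 and Zfp790. Only genes named as members on the array count here, and Zfp933 lies among near copies with other names. Of all probes so detected, 26.9% passed and 2.2% were called. The medians were -0.04 and 0.03. No probe detected on all 8 arrays was called in 11 of the 12 clusters, the exception being the one that holds Zfp961.

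Single clusters differed in pattern. On chromosome 13, between Zfp808 and Zfp934, all 4 probes so detected, 3 of Zfp934 and 1 of Zfp935, were lower, from -0.44 to -0.23, while the 4 probes of other genes in the interval had a median of -0.11. Some 4.48 Mb further along the same chromosome, the 9 genes from Zfp712 to Zfp729a had 4 probes higher and 1 lower of 7, with a median of 0.32. The 11 probes of other genes there had a median of 0.40, from -0.92 to 1.12. This interval also holds Zfp874a and Zfp708, which were lower, so neighbouring genes moved in opposite directions. On chromosome 8, between Zfp709 and Zfp961, 3 of 5 probes were higher, 2 of Zfp961 and 1 of Zfp882. The median was 0.82, while the 2 probes of other genes there had a median of -0.20. On chromosome 10, between Zfp781 and Zfp938, 2 of 3 were lower, both of Zfp781. The 9 genes on chromosome 17 from Zfp948 to Zfp945 had 3 higher and 2 lower of 11 probes, from -0.44 to 0.72. The 8 genes from Zfp871 to Zfp955b on the same chromosome had 1 of each of 11, from -0.21 to 0.18.

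**Figure D3:**
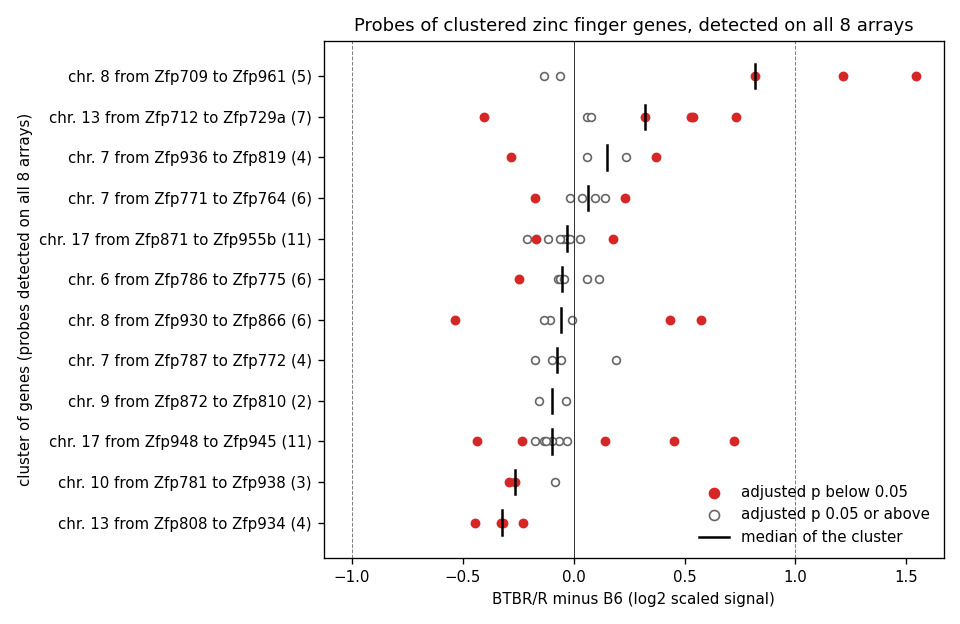
Changes of member probes detected on all 8 arrays (horizontal axis, log2 scaled signal) in the 12 clusters (vertical axis, with the number of probes in brackets). Red points passed an adjusted p of 0.05, and black bars are medians. The cluster from Zfp808 to Zfp934 has all 4 probes below 0, and the cluster from Zfp709 to Zfp961 has the highest median, 0.82.

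**Figure D4:**
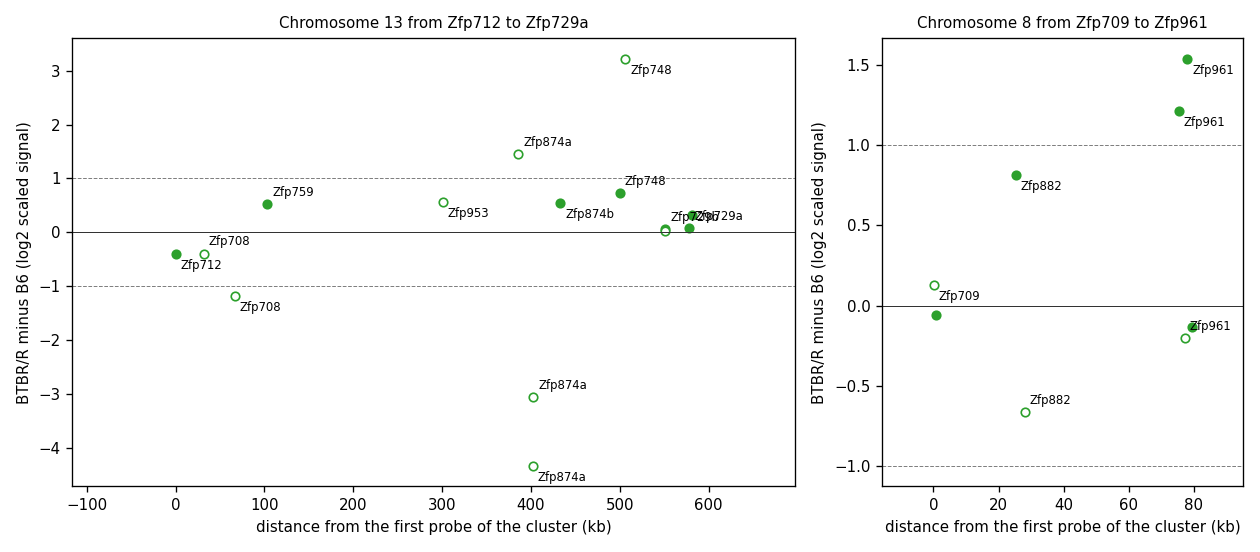
Change of every member probe (vertical axis, log2 scaled signal) against distance from the first probe (horizontal axis, kb) in a cluster of chromosome 13 and in one of chromosome 8. Filled points were detected on all 8 arrays and open points were not. On chromosome 13 the changes of neighbouring genes differ in sign, and Zfp874a has 2 probes at -4.34 and -3.05, detected on 1 and on no BTBR/R array, and another, below background on most arrays, above 0, while Zfp874b lies at 0.54.

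Within 250 kb of the 8 named genes, 4 other genes had a called probe detected on all 8 arrays. Zfp458, a zinc finger gene near Zfp874a and Zfp708, was higher by 1.12, against the direction of both. Gm13154 near Zfp933 was lower by 1.40 and Zfp566 near Zfp790 was lower by 1.25, as their neighbours were. The kinase gene Aurkc near Zfp772 was higher by 1.19. No such probe was found near Zfp963, Zfp846 or Zfp961, among 20, 14 and 11 probes of other genes detected on all 8 arrays.

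The co-repressor genes that KRAB zinc finger proteins act through passed the test about as often as all probes did. A list of 29 genes (TRIM28, SETDB1 and its partners, HP1 proteins, NuRD subunits, the HUSH complex and DNA methyltransferases) had 48 probes detected on all 8 arrays, none called higher and 1 called lower. Of these, 5 were higher and 7 lower at an adjusted p below 0.05 (10.4% and 14.6%, beside the 13.0% and 13.9% of all probes given above), with a median of -0.03. Trim28 was higher by 0.20 (SE 0.042, adjusted p = 0.0067, limma) on 1 probe, and the other, at 0.19, did not pass the test. Atf7ip, a partner of SETDB1, was lower by 0.22 and 0.30 in 2 of 4 probes, and the single Setdb1 probe so detected had a change of -0.03.

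Hdac1, the histone deacetylase of the NuRD complex, carried the single call, and its probes disagreed. A_65_P09914 read 0.91, 0.83, 0.80 and 0.56 in B6 and -0.63, -0.34, -0.64 and -0.83 in BTBR/R, a change of -1.38 (SE 0.12, adjusted p = 5.03e-05, limma). A_55_P1970775 was lower too, by 0.75, but A_51_P507380 was higher by 0.75, from 0.97 to 1.09 in B6 and 1.73 to 1.84 in BTBR/R. No net direction can be given for this gene.

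The promoters of the members were searched for short sequence features. RefSeq promoters (GRCm38.p6, 250 bases before to 50 after a gene's start) were found for 93 of the 106 genes, 110 in all. They were read from the reference genome, which is that of B6. Each was searched on both strands for CCAAT (the CCAAT box), TATAAA (the TATA box), CCGGAAG (an ETS core), GCATGCGC (an NRF1 core), AAGATGGC (a YY1 core) and TACANTTCC (the core of the motif of the activator ZNF143, chosen after the promoters had been read). The last can overlap the ETS core, since both hold TTCC on one strand or the other. CCAAT was found in 58.2% of member promoters, beside 37.8% for Zfp1 to Zfp699 and 37.4% of all 32851 promoters. The ZNF143 core was found in 11.8%, 15.4% and 1.95%. The TATA box was found in 6.36%, 7.48% and 13.6%, and the median number of CpG was 10, 16 and 7.

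**Figure D5:**
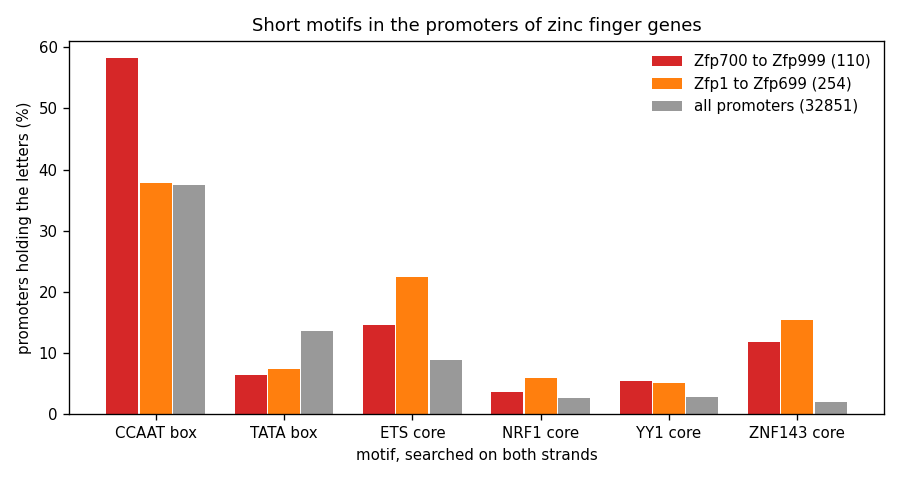
Share of promoters (vertical axis, percent) that hold each of 6 short motifs (horizontal axis), for the members, for Zfp1 to Zfp699 and for all promoters in the table. CCAAT was found in 58.2% of the 110 member promoters and in 37.4% of all promoters, and the ZNF143 core in 11.8% and 1.95%.

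The 250 bases before the start are shown for 5 of the 8 named genes, with CCAAT and the ZNF143 core in capitals on either strand, for the genes whose probes are given above.
Zfp933, chr4:147848419-147848668 (GRCm38.p6, minus strand): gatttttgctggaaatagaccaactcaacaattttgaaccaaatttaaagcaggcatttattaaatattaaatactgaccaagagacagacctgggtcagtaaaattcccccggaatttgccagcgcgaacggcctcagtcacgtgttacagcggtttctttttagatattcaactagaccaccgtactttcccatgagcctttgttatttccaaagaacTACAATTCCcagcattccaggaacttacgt
Zfp874a, chr13:67451625-67451874 (GRCm38.p6, minus strand): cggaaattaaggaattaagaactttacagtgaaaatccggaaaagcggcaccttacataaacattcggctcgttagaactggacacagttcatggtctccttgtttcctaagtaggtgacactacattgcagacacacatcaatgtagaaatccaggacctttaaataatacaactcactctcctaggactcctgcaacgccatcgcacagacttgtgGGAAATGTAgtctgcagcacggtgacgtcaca
Zfp790, chr7:29815822-29816071 (GRCm38.p6, plus strand): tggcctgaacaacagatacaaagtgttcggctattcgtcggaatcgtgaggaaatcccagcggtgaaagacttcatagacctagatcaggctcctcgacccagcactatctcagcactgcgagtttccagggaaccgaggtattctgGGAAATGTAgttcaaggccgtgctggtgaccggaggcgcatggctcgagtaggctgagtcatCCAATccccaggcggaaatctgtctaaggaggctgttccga
Zfp961, chr8:71950816-71951065 (GRCm38.p6, plus strand): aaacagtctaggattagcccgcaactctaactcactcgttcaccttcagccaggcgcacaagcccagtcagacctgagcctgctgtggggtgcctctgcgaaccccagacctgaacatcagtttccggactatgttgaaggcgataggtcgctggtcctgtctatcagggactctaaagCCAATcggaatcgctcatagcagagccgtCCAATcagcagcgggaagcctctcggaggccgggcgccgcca
Zfp963, chr8:69749963-69750212 (GRCm38.p6, minus strand): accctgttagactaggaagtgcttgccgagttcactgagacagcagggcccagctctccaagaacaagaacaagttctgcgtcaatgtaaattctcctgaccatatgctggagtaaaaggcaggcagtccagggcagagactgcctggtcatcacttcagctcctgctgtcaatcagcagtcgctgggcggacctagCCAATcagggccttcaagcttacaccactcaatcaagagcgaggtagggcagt
The ZNF143 core was found in 4 of the 8 named genes, Zfp708, Zfp790, Zfp874a and Zfp933. These were lower in BTBR/R, as were 6 of the 8. By probes detected on all 8 arrays, it was found in 3 of 16 genes with promoters that were lower, in 5 of 17 that were higher and in 2 of 42 that passed in neither direction. It was also found in 3 of 18 genes without such a probe, Zfp708 and Zfp874a among them. Most of these counts are 1 locus of near copies. All 8 genes with promoters in the chromosome 13 cluster from Zfp712 to Zfp729a held the core, 4 of the 5 higher genes among them, and 5 of the 85 other members did. CCAAT was found in 10, 10, 24 and 10 genes of the same groups. A match describes letters in the reference, and whether BTBR/R carries them was not tested.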

How the data were processed

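RNA of 8 mice, 4 B6 and 4 BTBR/R, was measured on Agilent SurePrint G3 mouse arrays, and samples were grouped by the strain in their labels. The authors deposited Feature Extraction (version 10.7.3.1) intensities, whose processed signal has the background removed, is detrended, and holds a surrogate for the lowest values. Deposited flags mark outlying spots, control spots and detection above background. GeneSpring log2 values were deposited as well by the authors, and they were the log2 of that signal shifted by 1 constant in each array (within 0.01 for 99.97% of probes or more).

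Control spots and 36 to 52 outlier spots per array were left out, spots of a probe were averaged, and log2 signal, scaled to each array's 75th percentile, was fitted over 56605 probes with limma 3.58.1 (lmFit, eBayes) in R 4.3.3. Other steps used Python 3.11.15 with pandas 2.3.3 and matplotlib 3.10.9. Changes are BTBR/R minus B6, and a call needs a Benjamini-Hochberg adjusted p below 0.05 and 2-fold. The fit was tested on simulated data. No spot was saturated. The number of arrays and, for dim probes, the background limit the precision.

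Genes were named by a rule. It took every member with a called probe detected on all 8 arrays, or detected on every array of 1 strain with a bound of at least 2-fold, and every co-repressor gene called in a detected probe. Other genes singled out were chosen after their values were seen. The members and lists were chosen with earlier results of these data known. Positions and names are those of the array (mm9). By accession, 150 of the 182 member probes matched RefSeq (GRCm38.p6), none only under another symbol, though 12 matched another symbol as well. Promoters came from the same RefSeq release. The alternatives tried were normexp (offset 50), quantile normalization, scaling by the median or by the 75th percentile of probes detected on all arrays, the deposited log2 values, a fit without dim probes, a floor at the highest detection limit, the methods' t-test, a replicate block, leaving out each mouse, and cluster gaps of 0.5 and 2 Mb. A few genes of the study are not reported here.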

Additional observations from a re-analysis of the deposited data

Results flagged for a closer look

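In 4 of the 58 groups of 4 mice tested (29 probes in 2 strains), 1 mouse lay far from the other three relative to the range of its group. Chance alone marks about 1 in 20 groups. B6 replicate 3 read -1.07 for Zfp790, where the other B6 mice lay between -1.81 and -1.71. BTBR/R replicate 2 read -3.21 for the Zfp933 probe A_55_P2733695, where the others lay between -3.75 and -3.68, and -4.38 for the Zfp708 probe A_55_P1982234, where the others lay between -4.83 and -4.77. BTBR/R replicate 4 read -5.39 for the Zfp964 probe A_55_P2482310, which was detected on no array, with the others between -5.93 and -5.87. The calls of Zfp790 and of the Zfp933 probe were kept without these mice.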

How the results depend on the processing

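The 13 called probes of the 8 named genes kept their call under each alternative but normexp, where 5 of the 13 kept it, and the floor, where the Zfp874a probe A_66_P104181 lost it (-0.68). None of the 13 changed direction. The counts moved with how dim probes were treated. Member probes called higher numbered 12, but 2 with normexp, 3 with quantile normalization, 3 with dim probes left out and 3 with the floor, and those called lower numbered 13, but 3 with normexp and 9 with the floor. For probes detected on all 8 arrays, 1 member was called in each direction with normexp, in place of 2. Of Zfp1 to Zfp699, 0 were called higher and 3 lower with normexp, in place of 4 and 8, and 2 were called higher with median scaling. The values of undetected probes turned sign with normexp for Zfp735 (-0.13), Zfp950 (-0.23) and Zfp872 (-0.0043), and with quantile normalization for Zfp735 (-0.033) and Zfp872 (-0.082). Without each mouse in turn, member calls ranged from 8 to 13 higher and from 12 to 13 lower, with 2 and 2 among probes detected on all 8 arrays, and calls of Zfp1 to Zfp699 ranged from 2 (without B6 replicate 4) to 4 higher and from 7 to 8 lower. Zfp748 read 2.60 without BTBR/R replicate 1 and 3.84 without replicate 4, and Zfp946 read 1.58 without replicate 3. The cluster gap changed the number of clusters from 12 to 13 at 2 Mb. With a replicate block, 9 member probes were called higher and 13 lower. The labels tie no numbers across strains, and same-numbered mice did not deviate together (r = 0.0028, -0.070, -0.045 and 0.16, with only number 4 best matched by its own). Signal over background limits every probe below about -3.55, the highest detection limit of the 8 arrays.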

Other observations

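The names on the array are old, and 15 further genes (21 probes) have RefSeq accessions that now carry a Zfp symbol in the same number range. Of their 13 probes detected on all 8 arrays, 1 was called. Those on distal chromosome 4 lie in the gene array of Zfp933. Zfp985 (named Gm13154 on the array) was lower by 1.40 in BTBR/R on a probe at -0.48 ± 0.071 in B6 and -1.88 ± 0.17 in BTBR/R (SD, n = 4), while its second probe had a change of 0.96 and was detected on every B6 and 3 BTBR/R arrays. Zfp982 (Gm13152) was detected on every B6 array at a mean of -2.39 and on no BTBR/R array, at least 2.48-fold lower. Zfp984 and Zfp979 were called lower on probes that no BTBR/R array detected, with bounds of at least 1.33-fold and 1.20-fold, and Zfp987 was called lower with no bound. Zfp981 was higher, at -2.66 against -3.66 in B6 (adjusted p = 0.000196, limma) and Zfp992 was lower by 0.75 (adjusted p = 0.00111, limma), both on probes detected on all 8 arrays. The Zfp982 probe shares 45 bases with a probe of Zfp943, whose change was -0.03. Genes of this stretch of chromosome 4 thus differed in both directions between the strains.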
